A study of Mus musculus with 8 samples.

Results

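The collagen genes of the mouse brain at postnatal day 7 (P7) are described here: every entry of the gene table whose symbol in full was Col, digits, a and digits. The rule found 44 of 24015 entries, of which 43 reached 1 CPM (read counts divided by library size) in at least 1 library and were among the 15588 genes tested. *Col10a1* did not reach it, and 41 members reached it in at least 1 library of every genotype. *Col4a3bp*, which encodes a lipid transfer protein, is no collagen and was not counted. Messenger RNA was sequenced from 8 mice of 3 genotypes on an inbred C57BL/6N background, in a line in which Cas9 had removed the 1b regulatory interval of the sodium channel gene *Scn1a* in oocytes, so that every cell carries the deletion. The WT group, with 0 deleted alleles, was 2 males. The 1b+/- group, with 1 deleted allele, was 2 males and 2 females, and the 1b-/- group, with 2, was 2 females. The labels call the tissue hippocampus and the study's methods call it forebrain. The study asked what loss of the interval does to gene expression. The collagens were compared between genotypes, between libraries and between the collagens of fibrils and those of basement membranes.

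Libraries held 2947770 (1b+/- replicate 4) to 20878772 counts (1b+/- replicate 3). Thus 0 counts allowed up to 0.145 CPM in the deepest library and up to 1.0 CPM in the shallowest, counting error only. *Scn1a* was at 40.5 to 45.1 CPM in WT, 15.7 to 26.7 CPM in 1b+/- and 2.0 to 3.18 CPM in 1b-/- libraries, as the genotype labels have it. 1 library stood apart in the collagens, the male 1b+/- replicate 1, and the results that rest on it are given with and without it. The fits to males alone and with sex in the model were made with it only. That replicates were separate animals rests on the labels, and p-values measure only the spread between these libraries. In bulk tissue, fewer cells of a type and less RNA per cell cannot be told apart.

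Collagens are trimers of alpha chains wound into a triple helix, each chain from its own gene. Fibrillar collagens (types I, II, III, V and XI among others) assemble into the fibres of connective tissue, and fibril-associated collagens (FACIT) bind to their surface. Collagen IV forms the sheet of basement membranes, collagen VI forms beaded filaments, and multiplexins carry heparan or chondroitin sulphate at basement membranes. In the brain, fibrillar collagens are made mainly by fibroblasts of the meninges and around larger vessels, and collagen IV mainly by endothelial cells and pericytes. A few collagens, such as *Col19a1* and *Col25a1*, are made by neurons.

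Sequences at the starts of the leading collagen genes are shown because the chains of a trimer are made together. *Col4a1* (mm9, chromosome 8, 11198423 to 11312826, minus strand) and *Col4a2* (11312805 to 11449287, plus strand) encode the chains of the common collagen IV trimer and start head to head. Their annotated starts overlap by 22 bases in mm9, and the RefSeq starts in GRCm38.p6 have the same positions and the same overlap. The overlap is printed on the plus strand (GRCm38.p6, chr8:11312805-11312826).
Col4a1 and Col4a2 overlap: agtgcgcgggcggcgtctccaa
The other collagen IV genes are arranged likewise, with 71 bases between *Col4a3* and *Col4a4* on chromosome 1 and 1308 bases between *Col4a6* and *Col4a5* on chromosome X. *Col1a2* (mm9, chromosome 6, 4454814 to 4491543) and *Col1a1* (chromosome 11, 94797538 to 94814356), which encode the chains of collagen I, lie on different chromosomes. For *Col1a2* and for *Col3a1*, the chain of collagen III, stretches of the RefSeq promoter (GRCm38.p6, plus strand) that hold a searched motif are printed with the motif in capitals.
Col1a2, chr6:4505412-4505436: aGGGCGGgtggctggggaGGGCGGa
Col1a2, chr6:4505499-4505523: aagaatggaaCCAATttaagaagcc
Col3a1, chr1:45311412-45311435: aatgcatgtTATAAAcatatgcat
The *Col1a2* motifs begin 205, 188 and 109 bases before the start, and that of *Col3a1* begins 117 bases before it. A GC box was searched as GGGCGG, a second motif, named for its letters, as CCAAT, and a TATA box as TATAAA, each on both strands. The motifs do not overlap each other in these stretches. Of the 44 members, 35 had a RefSeq promoter, in 38 windows of 250 bases before the start. GGGCGG stood in 22 of the 38 windows and in 32.7% of all 32851 windows of that length. CCAAT stood in 13 of the 38 and in 33.8% of all windows, and TATAAA in 5 of the 38 and in 12.4%. A match describes the letters alone.

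Collagens made up 0.103% to 0.331% of all counts in a library. Per kilobase of annotated exon, which allows levels to be compared between genes, *Col4a1* was highest with a mean of 41.7 CPM per kilobase over the 8 libraries. *Col3a1* followed with 33.5, *Col4a2* with 25.2, *Col1a1* with 16.5 and *Col1a2* with 15.8 CPM per kilobase. These 5 genes of the interstitial fibril and of the basement membrane thus headed the list. *Col6a1*, a chain of collagen VI, was next with 11.0 CPM per kilobase, and the neuronal *Col25a1* and *Col19a1* were at 4.18 and 3.35. Exon lengths were found for 43 of the 44 members, all but *Col26a1*. The mean of 23 members was at least 10 CPM. The 5 members with the lowest means were *Col5a3* (1.39 CPM), *Col17a1* (0.993), *Col20a1* (0.795), *Col6a6* (0.768) and *Col10a1* (0.342). Each of these lay under the limit that a count of 0 allows in at least 1 library.

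The summed CPM of the 11 fibrillar collagens was 426 and 625 in the WT libraries, 1702, 838, 603 and 693 in the 1b+/- libraries and 746 and 480 in the 1b-/- libraries. Replicate 1 of 1b+/- was more than double every other library, and the remaining 1b+/- libraries overlapped both other genotypes. The 1b+/- libraries averaged 959 ± 505 CPM (SD, n = 4), against 526 ± 140 CPM for WT (SD, n = 2) and 613 ± 188 CPM for 1b-/- (SD, n = 2). Without replicate 1 the 1b+/- mean was 712 ± 119 CPM (SD, n = 3).

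The summed CPM of the 6 basement membrane collagens was 354 and 438 in WT, 478, 488, 443 and 678 in 1b+/- and 590 and 424 in 1b-/- libraries. Here 1b+/- replicate 4 was highest, and replicate 1 lay in the middle of the range. The highest library was 1.92 times the lowest, against 3.99 times for the fibrillar sum, or 1.97 times without 1b+/- replicate 1. The 1b+/- libraries averaged 522 ± 106 CPM (SD, n = 4), those of 1b-/- 507 ± 118 CPM (SD, n = 2) and those of WT 396 ± 59.9 CPM (SD, n = 2).

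The log2 ratio of the fibrillar to the basement membrane sum was 0.27 and 0.51 in WT, 1.83, 0.78, 0.44 and 0.03 in 1b+/- and 0.34 and 0.18 in 1b-/- libraries. Its mean was higher in 1b+/- than in WT by 0.38, and by 0.03 without 1b+/- replicate 1. The difference of 1b-/- from WT was -0.13, smaller than the spread of the WT libraries (SD 0.17). Fibrillar collagens made up 55.3% of all collagen CPM in 1b+/- replicate 1 and 37.8% to 47.3% elsewhere. Collagen IV made up 15.5% of it in that library and 27.6% to 37.0% elsewhere. The single library that was rich in collagen was therefore rich in fibrillar chains and not in collagen IV.

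**Figure D1:**
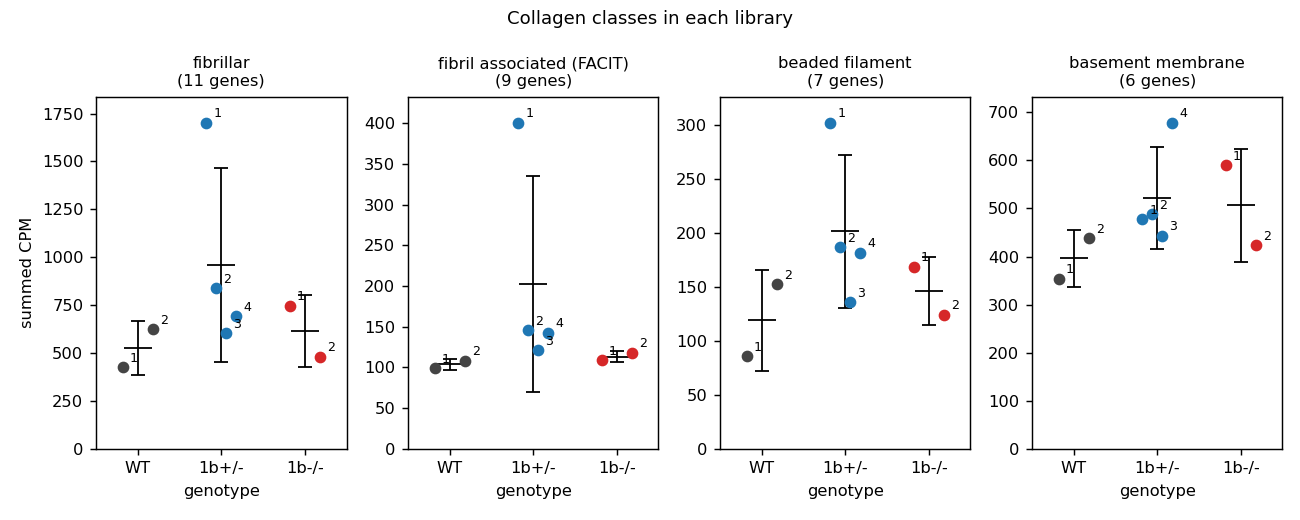
Summed CPM of 4 collagen classes (vertical axes, each from 0) by genotype, with each library as a numbered point (its replicate number) and the mean and SD as bars. 1b+/- replicate 1 stands at 1702 CPM in the fibrillar panel and at 401 CPM in the FACIT panel, far above the other 7 libraries, while in the basement membrane panel it lies at 478 CPM among them.

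Among basement membrane chains, *Col4a1* was 192 and 258 CPM in WT, 262, 296, 254 and 407 CPM in 1b+/- and 357 and 251 CPM in 1b-/- libraries. Its partner *Col4a2* was 134 and 148 CPM in WT, 180, 155, 155 and 232 CPM in 1b+/- and 182 and 149 CPM in 1b-/- libraries. WT replicate 1 was lowest and 1b+/- replicate 4 highest for both genes. For *Col4a2* all 1b+/- libraries lay above both WT libraries, for *Col4a1* they did not. The ratio of the 2 genes per kilobase was 1.39 to 1.91 over the libraries. *Col4a5*, an X-linked chain of a second collagen IV trimer, was 17.5 and 19.9 CPM in WT, 22.1, 25.9, 20.5 and 24.0 CPM in 1b+/- and 31.1 and 13.5 CPM in 1b-/- libraries, with the 1b-/- pair spanning the whole range. *Col4a6*, its neighbour, ranged from 6.04 to 14.2 CPM, *Col4a3* from 1.25 to 3.31 CPM and *Col4a4* from 0.668 to 3.06 CPM. Replicate 1 of 1b+/- was the highest library for 0 of these 6 genes, and its level was 0.852 to 1.27 times the median of the other 7 libraries.

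The chains of collagen I, the main protein of bone, tendon and dense fibrous tissue, behaved otherwise. *Col1a1* was 50.6 and 71.7 CPM in WT, 380, 102, 61.2 and 55.8 CPM in 1b+/- and 83.2 and 61.1 CPM in 1b-/- libraries. *Col1a2* was 92.7 and 147 CPM in WT, 539, 176, 143 and 145 CPM in 1b+/- and 187 and 101 CPM in 1b-/- libraries. In 1b+/- replicate 1, *Col1a1* was 6.21 times and *Col1a2* 3.72 times the median of the other 7 libraries, and those 7 overlapped between genotypes. The ratio of *Col1a1* to *Col1a2* per kilobase was 1.30 in that library and 0.712 to 1.12 in the others. *Col3a1*, the collagen of loose tissue and vessel walls, was 163 and 255 CPM in WT, 474, 335, 228 and 320 CPM in 1b+/- and 296 and 175 CPM in 1b-/- libraries. It was also highest in 1b+/- replicate 1, but only 1.86 times the median of the others.

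Collagens V and XI lie inside collagen I and II fibrils and set their width. *Col5a1* was 18.8 and 33.1 CPM in WT, 67.3, 37.5, 26.1 and 36.1 CPM in 1b+/- and 33.5 and 21.5 CPM in 1b-/- libraries. *Col5a2*, which lies 24614 bases from *Col3a1* on chromosome 1, was 43.5 and 58.5 CPM in WT, 121, 88.7, 70.2 and 69.1 CPM in 1b+/- and 78.6 and 59.6 CPM in 1b-/- libraries. *Col11a1* was 34.5 and 36.3 CPM in WT, 80.5, 68.0, 53.7 and 48.4 CPM in 1b+/- and 49.7 and 42.1 CPM in 1b-/- libraries. For *Col5a2* and *Col11a1* all 4 1b+/- libraries lay above both WT libraries. *Col2a1*, the collagen of cartilage, was 14.4 and 13.3 CPM in WT, 16.5, 14.7, 10.8 and 11.0 CPM in 1b+/- and 8.94 and 12.3 CPM in 1b-/- libraries, with both 1b-/- libraries below both WT libraries and the 1b+/- libraries overlapping both groups. The other fibrillar members, *Col5a3*, *Col11a2*, *Col24a1* and *Col27a1*, had means of 1.39 to 4.57 CPM. Of the 11 fibrillar genes, 10 were highest in 1b+/- replicate 1, the exception being *Col5a3*.

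In the FACIT class, *Col12a1* was 39.3 and 46.3 CPM in WT, 266, 88.5, 58.2 and 64.1 CPM in 1b+/- and 42.7 and 51.8 CPM in 1b-/- libraries. *Col14a1* was 5.29 and 5.36 CPM in WT, 48.6, 5.76, 5.23 and 8.68 CPM in 1b+/- and 6.24 and 5.51 CPM in 1b-/- libraries. Both encode collagens that coat collagen I fibrils in dense connective tissue, and for both 1b+/- replicate 1 was far above the rest, at 5.14 and 8.82 times the median of the other 7 libraries. For *Col12a1* the other 1b+/- libraries also exceeded every WT and 1b-/- library, for *Col14a1* they did not. The neuronal *Col19a1* was 26.0 and 20.1 CPM in WT, 18.3, 25.7, 27.7 and 19.03 CPM in 1b+/- and 26.1 and 21.5 CPM in 1b-/- libraries, and 1b+/- replicate 1 was its lowest library. *Col9a3*, a chain of the cartilage collagen IX, was 11.1 and 12.3 CPM in WT, 12.3, 7.27, 7.51 and 15.7 CPM in 1b+/- and 10.04 and 12.3 CPM in 1b-/- libraries. *Col16a1* reached 25.3 CPM in 1b+/- replicate 1 and was 4.22 to 11.7 CPM in the others. *Col9a1*, *Col9a2*, *Col20a1* and *Col22a1* had means of 0.795 to 8.97 CPM.

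Collagen VI surrounds fibroblasts and vessels as beaded filaments. *Col6a1* was 21.2 and 46.1 CPM in WT, 101, 49.0, 38.5 and 49.7 CPM in 1b+/- and 44.3 and 38.3 CPM in 1b-/- libraries. *Col6a2* was 17.03 and 43.4 CPM in WT, 74.3, 29.0, 28.0 and 39.1 CPM in 1b+/- and 31.0 and 27.3 CPM in 1b-/- libraries. *Col6a3* was 41.1 and 57.9 CPM in WT, 115, 99.6, 62.9 and 88.1 CPM in 1b+/- and 83.5 and 51.8 CPM in 1b-/- libraries. All 3 chains were lowest in WT replicate 1 and highest in 1b+/- replicate 1, and in *Col6a3* alone of the 3 the 1b+/- and WT libraries did not overlap. *Col6a4*, *Col6a5*, *Col6a6* and *Col28a1* had means of 0.768 to 3.07 CPM.

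The multiplexin *Col18a1*, whose C-terminal fragment is endostatin, was 17.7 and 22.7 CPM in WT, 35.6, 29.997, 25.3 and 48.1 CPM in 1b+/- and 35.9 and 25.5 CPM in 1b-/- libraries. *Col15a1* was 8.68 and 9.96 CPM in WT, 11.0, 17.1, 9.89 and 11.7 CPM in 1b+/- and 18.4 and 7.26 CPM in 1b-/- libraries. Like the collagen IV chains, neither multiplexin was highest in 1b+/- replicate 1, and in *Col18a1* all 4 1b+/- libraries were above WT. *Col8a1*, a network collagen of vessel walls and of the corneal basement membrane, was 11.6 and 19.001 CPM in WT, 28.1, 4.65, 6.59 and 7.34 CPM in 1b+/- and 7.96 and 6.26 CPM in 1b-/- libraries. Leaving 1b+/- replicate 1 aside, *Col8a1* was higher in both WT libraries than in the 5 others. *Col8a2* had the same highest library (13.4 CPM) and was 2.82 to 8.58 CPM in the others, and *Col7a1* ranged from 1.23 to 4.65 CPM.

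Of the transmembrane collagens, *Col25a1*, made by neurons, was 43.8 and 43.4 CPM in WT, 53.0, 18.9, 39.9 and 29.0 CPM in 1b+/- and 42.2 and 40.6 CPM in 1b-/- libraries. *Col23a1* was 7.61 and 12.7 CPM in WT, 21.6, 14.4, 12.6 and 13.02 CPM in 1b+/- and 10.8 and 9.76 CPM in 1b-/- libraries. *Col13a1* and *Col17a1* had means of 2.51 and 0.993 CPM. *Col26a1*, outside these classes, was 7.85 and 13.03 CPM in WT, 23.6, 12.8, 11.1 and 17.7 CPM in 1b+/- and 12.5 and 11.8 CPM in 1b-/- libraries, and was again lowest in WT replicate 1 and highest in 1b+/- replicate 1.

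Over the 43 members tested, 1b+/- replicate 1 was the highest library for 25 (58.1%), against 15.3% of all genes tested. WT replicate 1 was the lowest library for 19 (44.2%), against 11.3% of all genes. By class, replicate 1 was highest for 10 of 11 fibrillar, 5 of 9 FACIT, 5 of 7 beaded filament and 0 of 6 basement membrane genes. Its median level relative to the median of the other 7 libraries was 1.93 for the fibrillar class, 2.47 for the FACIT class, 1.83 for the beaded filament class and 1.05 for the basement membrane class, against 1.01 over all genes tested.

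**Figure D2:**
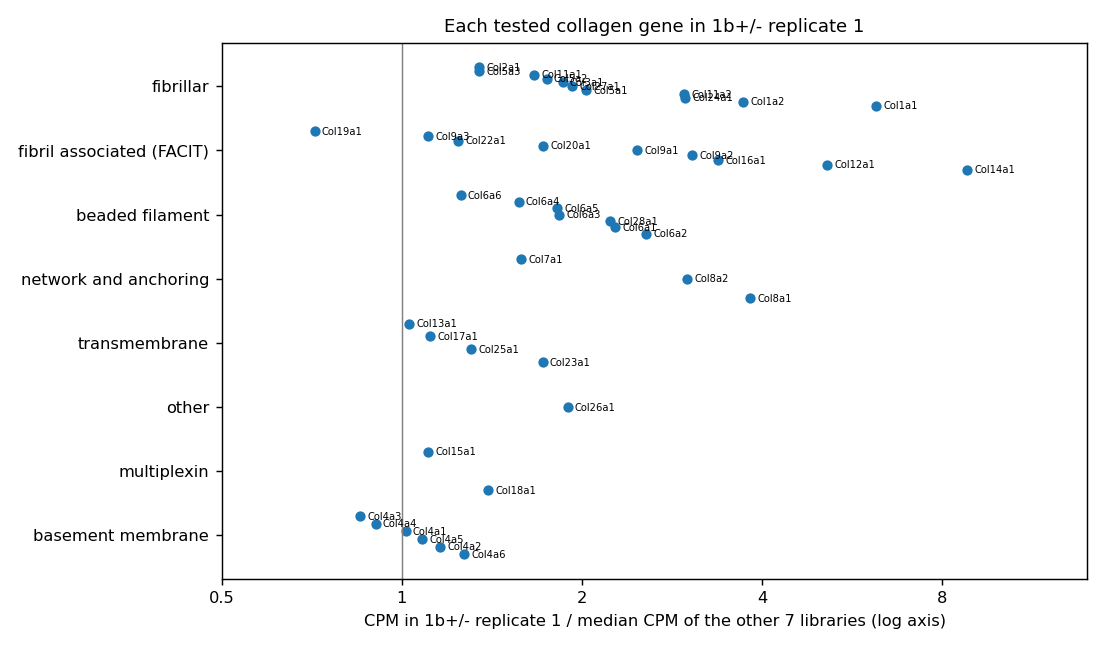
Ratio of the CPM in 1b+/- replicate 1 to the median CPM of the other 7 libraries (horizontal log axis) for the 43 collagen genes tested, 1 point a gene, in rows by class; the vertical line marks a ratio of 1. Basement membrane genes lie between 0.852 and 1.27, fibrillar genes between 1.35 and 6.21, and the FACIT genes spread from 0.715 (Col19a1) to 8.82 (Col14a1).

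The first genotype comparison asked whether 1 deleted allele went with a change in collagen expression. Between 1b+/- and WT, 0 of 43 collagens passed an adjusted p of 0.05 in the edgeR quasi-likelihood test, where 0.0834% of all genes passed. At an unadjusted p under 0.05, 10 were higher in 1b+/- (2.5% of all genes were higher at that level) and 0 were lower (1.83% of all genes). With DESeq2, 0 passed the adjusted threshold and 11 had an unadjusted p under 0.05 in either direction (3.54% of all genes in that test). The 10 higher genes held 4 fibrillar collagens (*Col3a1*, *Col5a2*, *Col11a1*, *Col11a2*), the beaded filament genes *Col6a1* and *Col6a3*, the FACIT genes *Col12a1* and *Col16a1*, *Col18a1* and *Col23a1*. The median log2 fold change of the 43 was 0.52, against 0.01 over all genes, and 36 of 43 (83.7%) were above 0, against 52.1% of all genes. In 8 of 43 every 1b+/- library was above both WT libraries, where 6.4% of all genes had that order, and in 0 every 1b+/- library was below, where 5.93% of all genes had it. The 8 were *Col4a2*, *Col4a5*, *Col5a2*, *Col6a3*, *Col11a1*, *Col12a1*, *Col13a1* and *Col18a1*. Without 1b+/- replicate 1, 6 were higher and 1 lower at an unadjusted p under 0.05 (in that fit 2.01% and 1.69% of all genes), and the median was 0.36. Without WT replicate 1 the count in either direction was 3 (1.99% of all genes) and the median 0.37. The count was 16 without 1b+/- replicate 2 (5.36% of all genes) and 18 without 1b+/- replicate 3 (4.92%), and an adjusted p under 0.05 was reached by 0 members in each of these fits.

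*Col11a1* had the lowest adjusted p of this comparison, with a log2 fold change of 0.83 (SE 0.21, adjusted p = 0.466, edgeR). It was higher in 4 of 4 1b+/- libraries than in either WT library, and without 1b+/- replicate 1 its log2 fold change was 0.69 (SE 0.19). *Col6a3* followed with 0.89 (SE 0.26) and *Col5a2* with 0.79 (SE 0.24). Among members with a mean of at least 10 CPM, the values largest in size were those of *Col14a1* (1.73, SE 0.83), *Col12a1* (1.497, SE 0.53), *Col1a1* (1.31, SE 0.66) and *Col1a2* (1.07, SE 0.51). Without 1b+/- replicate 1 these fell to 0.22, 0.72, 0.27 and 0.37. Those of *Col4a1* and *Col4a2* were 0.43 (SE 0.22) and 0.35 (SE 0.18), and were 0.50 and 0.35 without that library. *Col8a1* had a log2 fold change of -0.32 (SE 0.57), which became -1.32 (SE 0.28, adjusted p = 0.335, edgeR) without 1b+/- replicate 1. In *Col8a1* that library is thus the opposite of the rest of its group.

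**Figure D3:**
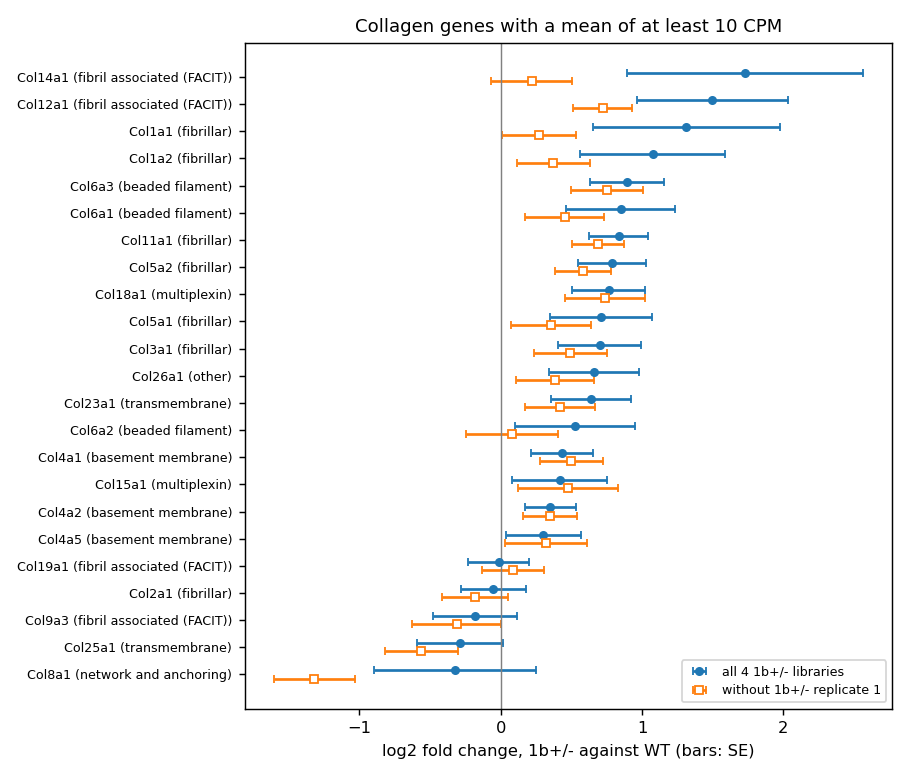
Log2 fold change of 1b+/- against WT (horizontal axis, bars are the SE) for the 23 collagen genes with a mean of at least 10 CPM, fitted with all 4 1b+/- libraries (filled circles) and without 1b+/- replicate 1 (open squares). Col14a1 moves from 1.73 to 0.22 and Col1a1 from 1.31 to 0.27, Col4a2 stays at 0.35, and Col8a1 moves from -0.32 to -1.32.

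The comparison of 1b-/- with WT shares its WT libraries with the first one, and here the WT mice were male and the 1b-/- mice female, so that genotype and sex cannot be told apart from these groups alone. Of 43 collagens 0 passed the adjusted threshold (0.00642% of all genes passed; with DESeq2 also 0). At an unadjusted p under 0.05, 1 was higher (0.917% of all genes) and 0 were lower (0.719% of all genes), and DESeq2 gave 2 in either direction (1.16% of all genes). The 1 gene was *Col6a5*, a chain of collagen VI named here after its values were seen. It was 1.07 and 1.38 CPM in WT, 2.57, 1.41, 1.94 and 1.34 CPM in 1b+/- and 3.67 and 2.75 CPM in 1b-/- libraries, and its log2 fold change was 1.43 (SE 0.50). The median log2 fold change of the 43 members was 0.24. *Col4a1* had 0.44 (SE 0.25), *Col1a1* 0.25 (SE 0.73) and *Col3a1* 0.18 (SE 0.33). The collagen levels of 1b-/- replicate 1 (1752 CPM in all) were above those of replicate 2 (1259 CPM). Without replicate 1 the count at an unadjusted p under 0.05 was 0 (1.87% of all genes) and the median was 0.04, and without replicate 2 they were 7 (2.1% of all genes) and 0.39. The count was 2 without WT replicate 2 (1.87% of all genes) or without 1b+/- replicate 1 (1.7%), 3 (1.28%) or 4 (1.65%).

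Between 1b-/- and 1b+/-, 0 of 43 passed the adjusted threshold (0.00642% of all genes; with DESeq2 also 0). At an unadjusted p under 0.05, 0 were higher (0.455% of all genes) and 2 were lower (0.776% of all genes), and DESeq2 gave 2 in either direction (0.84% of all genes). The 2 were *Col12a1* (log2 fold change -1.36, SE 0.54) and *Col11a1* (-0.45, SE 0.21), which without 1b+/- replicate 1 were -0.58 and -0.31. The median log2 fold change was -0.36, and -0.08 without that library. Among females alone, where 2 1b+/- and 2 1b-/- libraries remain, the median was -0.0017. The count was 9 without 1b+/- replicate 3 (1.69% of all genes), 1 without WT replicate 1 (1.03%) or WT replicate 2 (1.02%) and 0 without 1b-/- replicate 2 (1.9%).

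Sex could be set against genotype in part, because 1b+/- held both. Among males alone the median log2 fold change of 1b+/- against WT was 0.75, with 19 members higher at an unadjusted p under 0.05 (2.95% of all genes in that fit) and 0 past the adjusted threshold. That fit rests on 2 libraries a group, of which 1 is 1b+/- replicate 1. After adding sex to the model the median was 0.75 for 1b+/- against WT, where 19 members were higher at that level (3.5% of all genes). For 1b-/- against WT it was also 0.75, with 10 members higher (1.92% of all genes), and 0 passed the adjusted threshold in either. WT was all male and 1b-/- all female, so the sex term rests on the 1b+/- libraries, whose males include replicate 1. With that term, *Col1a1* for 1b-/- against WT went from 0.25 to 2.29 and *Col4a1* from 0.44 to 0.20. The model with sex was not fitted without 1b+/- replicate 1.

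The genes that serve collagen were then counted in the same fit. Of 60 genes for collagen synthesis, fibril proteoglycans, basement membrane proteins and collagen receptors, 58 were tested and 0 passed the adjusted threshold in any of the 3 comparisons (DESeq2 also called 0). For 1b+/- against WT, 18 were higher at an unadjusted p under 0.05 (2.5% of all genes) and 0 lower (1.83%), with a median log2 fold change of 0.41, against 0.01 over all genes. For 1b-/- against WT 4 were higher (0.917% of all genes), and for 1b-/- against 1b+/- 0 were higher (0.455%) and 0 lower (0.776%).

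By role, 5 of 26 genes for synthesis and processing were higher in 1b+/- at that level, where 2.5% of all genes were, with a median of 0.31. The prolyl hydroxylase subunit *P4hb*, which also serves other secreted proteins, ranged from 250 to 283 CPM. *Serpinh1*, the collagen chaperone Hsp47, was 58.4 and 83.7 CPM in WT, 144, 85.1, 79.0 and 135 CPM in 1b+/- and 71.7 and 87.6 CPM in 1b-/- libraries, and its groups of 1b+/- and WT overlapped. *Adamts3*, a procollagen peptidase, was 108.7 and 99.1 CPM in WT and 67.4 to 95.7 CPM in 1b+/- libraries, lower than in either WT library, with a log2 fold change of -0.34 (SE 0.18). Of 8 fibril proteoglycans, 3 were higher at an unadjusted p under 0.05, with a median of 0.65. Decorin (*Dcn*) was 50.4 and 78.3 CPM in WT, 121, 134, 88.7 and 87.5 CPM in 1b+/- and 86.8 and 67.6 CPM in 1b-/- libraries, and all 1b+/- libraries were above WT. Osteoglycin (*Ogn*) ranged from 32.5 to 101 CPM and biglycan (*Bgn*) from 23.8 to 62.7 CPM. Of 14 basement membrane proteins, 7 were higher at that level, with a median of 0.53. *Sparc*, which binds collagen, ranged from 191 to 330 CPM, agrin (*Agrn*) from 138 to 216 CPM and the laminin chain *Lamc1* from 122 to 172 CPM. Of 10 receptors 3 were higher, with a median of 0.20. *Itgb1*, the beta chain of the collagen-binding integrins, ranged from 289 to 420 CPM, the collagen III receptor *Gpr56* from 76.6 to 115 CPM, and *Ddr2*, a receptor kinase for fibrillar collagen, was 25.9 and 39.7 CPM in WT and 45.0 to 65.3 CPM in 1b+/- libraries.

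The collagens were set beside markers of the cells that could hold them. Markers of meningeal fibroblasts (12 of 12 tested) summed to 307 CPM in WT replicate 1 and to 426 to 762 CPM in the others, with 1b+/- replicate 1 the highest. All 12 were lowest in WT replicate 1 and 7 were highest in 1b+/- replicate 1. Of these, *Igf2* ranged from 183 to 435 CPM, the transcription factor *Foxc1* from 32.7 to 74.0 CPM and *Fbln1* from 27.5 to 58.9 CPM. In 1b+/- against WT 4 of the 12 were higher at an unadjusted p under 0.05 (2.5% of all genes), with a median log2 fold change of 0.73. WT replicate 1 was thus low both in fibrillar collagens and in meningeal markers. It was also lowest in the sums of basement membrane collagens (354 CPM) and of mural cell markers (192 CPM). The endothelial sum was lowest in WT replicate 2 (319 CPM).

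Endothelial markers (12 of 12 tested) summed to 319 to 479 CPM, and their sum was highest in 1b+/- replicate 4, the shallowest library, as that of collagen IV was. The receptor *Kdr* ranged from 61.8 to 104 CPM and was also highest there. The transporter *Slco1c1* ranged from 44.8 to 77.6 CPM and was highest in WT replicate 1. *Cdh5* ranged from 33.7 to 65.6 CPM and was highest in 1b-/- replicate 1. In 1b+/- replicate 1 the endothelial sum was 344 CPM, 0.893 times the median of the others, and 0 of the 12 markers were highest in it. Mural cell markers (11 of 11 tested) summed to 192 to 285 CPM, and the sum was again highest in 1b+/- replicate 4. Of these, *Vtn* (27.2 to 74.1 CPM) was highest there too. *Rgs5* (43.8 to 86.5 CPM) and *Abcc9* (34.0 to 57.2 CPM) were highest in 1b-/- replicate 1. In 1b+/- against WT 1 of 12 endothelial and 1 of 11 mural markers were higher at an unadjusted p under 0.05 (2.5% of all genes).

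Bone and cartilage markers (4 of 7 tested) summed to 90.5 CPM in 1b+/- replicate 1 and to 7.36 to 20.5 CPM elsewhere, and all 4 tested were highest there. *Ibsp*, the bone sialoprotein, was 60.2 CPM in it and 4.14 to 12.02 CPM in the others, *Acan*, the cartilage aggrecan, was 22.6 and 1.0 to 4.34 CPM, and *Dmp1* was 4.09 and 0.582 to 1.75 CPM. *Matn1*, *Chad* and *Bglap*, which were not tested, were at or under 0.707 CPM in every library and were not highest in 1b+/- replicate 1. The sum of midbrain and hindbrain markers (7 of 11 tested) was highest in the same library, at 61.4 CPM against 0.668 to 16.6 CPM, and *Gata3*, *En2* and *Barhl1* were at 16.8, 15.6 and 14.3 CPM in it. Of the 7 tested, 5 were highest there, and the Hox genes, which mark the hindbrain, were not. *Hoxb2* was 0.264 CPM in it and 1.21 CPM in 1b+/- replicate 2, *Hoxb3* was 0.792 and 1.21 CPM in these libraries, and *Hoxa2*, *Hoxa3* and *Hoxb4*, which were not tested, were highest in WT replicate 1. It was lowest in forebrain and hippocampus markers (7 of 7 tested), with 1221 CPM against 1525 to 2529 CPM, of which the pyramidal neuron factor *Neurod6* was 915 against 1074 to 2040 CPM and *Lhx2* 73.7 against 92.3 to 132 CPM. These values move with the fibrillar collagens of that library, and their part in the result was not tested. Meningeal, endothelial and mural markers were thus detected in all 8 libraries. In 1b+/- replicate 1 the collagens stood beside raised levels of the 4 tested bone and cartilage genes as well.

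The sum of choroid plexus markers (10 of 11 tested) was lowest in 1b+/- replicate 2, at 31.3 CPM, and highest in WT replicate 2 (1065 CPM). It was led by *Ttr* (6.77 to 938 CPM), *Clic6* (3.03 to 32.6 CPM) and *Kcne2* (0.404 to 23.9 CPM). *Ttr* made up most of the sum in WT replicate 2, and some other markers were highest in 1b+/- libraries. In 1b+/- against WT 4 of the 10 were lower at an unadjusted p under 0.05 (1.83% of all genes). Epithelial genes, a list drawn up from earlier results of these libraries and so no independent evidence, summed to 155 and 42.1 CPM in WT and to 1.89 to 6.56 CPM in the others. All 8 were lower in 1b+/- than in WT past the adjusted threshold in edgeR, which 0.0834% of all genes passed in either direction. Their median log2 fold change was -4.78 (*Krt15*, *Krt13*, *Krt8*, *Krt19*, *Krt6a*, *Upk1b*, *Upk3b* and *Msln*). They were highest in WT replicate 1, the library lowest in fibrillar collagens, and their part in the collagen values was not tested.

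**Figure D4:**
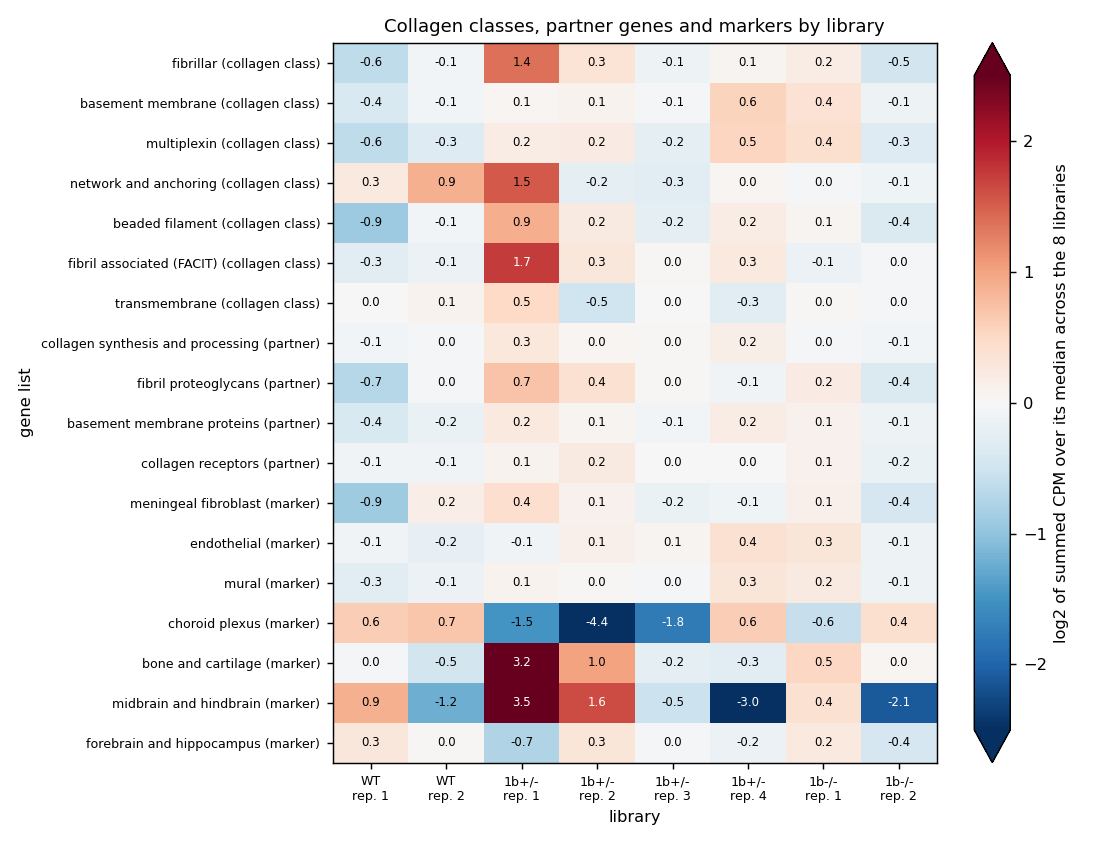
Log2 of the summed CPM of each gene list over its median across the 8 libraries (colour and printed value), with lists in rows and libraries in columns. The epithelial list and Col26a1, which is outside the classes, are not drawn. The fibrillar sum is 1.37 above its median in 1b+/- replicate 1, where bone and cartilage markers are 3.15 and midbrain and hindbrain markers 3.53 above theirs; the basement membrane sum is highest in 1b+/- replicate 4 (0.56), as the endothelial markers are (0.39).

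The genes most like *Col1a1* and most like *Col4a1* were sought by Pearson's r of log2 CPM over the 8 libraries among 11182 genes other than collagens with a mean of at least 5 CPM. For *Col1a1* they were *Tal1* (r = 0.976), *Crispld1* (0.972), *Ibsp* (0.959), *Angpt2* (0.957) and *Pde1c* (0.955). All 5 were highest in 1b+/- replicate 1, *Tal1* for example at 21.4 CPM against 2.67 to 5.15 CPM in the others. For *Col4a1* they were *Prkd2* (r = 0.963), *C130074G19Rik* (0.955), *Mcam* (0.947), *Vwf* (0.940) and *Sft2d2* (0.939). All 5 were highest in 1b+/- replicate 4, the shallowest library. *Vwf*, the endothelial von Willebrand factor, ranged from 16.5 to 35.7 CPM and *Mcam*, an adhesion molecule of endothelial and mural cells, from 7.94 to 18.7 CPM. These correlations over 8 libraries describe which libraries were high, the points share libraries and depth with the collagens, and each leading gene was chosen from many. *Col1a1* and *Col4a1* peaked in different libraries of the same genotype. The genes named beside each were chosen for their correlation with it, so their shared peaks are no separate evidence.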

How the data were processed

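RNA was sequenced from 8 P7 mice (WT n = 2, 1b+/- n = 4, 1b-/- n = 2) as stranded poly(A) libraries with single-end reads. The authors aligned reads to mm9 with STAR (version 2.7.2) and counted them per gene with featureCounts, and the deposited values are raw counts per gene symbol. Whether counting used strand, how reads with several matches were treated and which annotation served are not given in the sources used here. The 8 columns of the table were all used.

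Genotype and sex came from the labels, and a replicate number is only the sample's place in the series, which pairs no animals. Genes reaching 1 CPM in 1 or more libraries were tested with the quasi-likelihood test of edgeR 4.0.16 in R 4.3.3, with TMM scaling, genotype as the only factor and all 8 libraries in 1 fit. P-values were adjusted by Benjamini-Hochberg over all 15588 genes at 0.05. CPM are TMM-scaled. Fold changes and SE are on the log2 scale, the SE being derived from the test statistic. Exon lengths and mm9 positions came from GENCODE M1, promoters from RefSeq (GRCm38.p6). No test was made on sums, ratios or lists.

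The members, classes and lists were chosen with earlier results of these data known. By rule, members with a mean of at least 10 CPM, for each list the genes past the threshold or else the 3 most abundant, and for *Col1a1* and *Col4a1* the 5 most correlated genes were named. A marker gene that this rule names is not reported here. Other settings tried were DESeq2 1.42.0 (Wald test), the likelihood ratio test of edgeR, filterByExpr or no filter, upper quartile or RLE scaling, a covariate for sex, fits to the compared genotypes or to 1 sex, and fits without each library. The edgeR fits were tested on simulated data.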

Additional observations from a re-analysis of the deposited data

Results flagged for a closer look

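In the 4 libraries of 1b+/-, 5 of 25 measures had 1 library far from the other 3 by the gap divided by the range (Dixon's test at 95%), which chance gives in about 1 in 20 groups. In all 5 it was replicate 1, so that these are not 5 independent events. *Col1a1* was 380 CPM in it and 55.8 to 102 CPM in the other 3. *Col1a2* was 539 CPM against 143 to 176 CPM. *Col12a1* was 266 CPM against 58.2 to 88.5 CPM. *Col14a1* was 48.6 CPM against 5.23 to 8.68 CPM. *Col8a1* was 28.1 CPM against 4.65 to 7.34 CPM. The summed bone and cartilage markers and the summed midbrain and hindbrain markers were also highest in this library, and their part in these values was not tested.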

How the results depend on the processing

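The count of collagen genes past the adjusted threshold was 0 in every setting fitted in all 3 comparisons, and that of partner genes likewise. The lowest adjusted p of a collagen for 1b+/- against WT ranged from 0.0524 (no filter) to 1.0 (without WT replicate 1), and was 0.0655 in the likelihood ratio test and 0.0801 in DESeq2. The counts at an unadjusted p under 0.05 are given for fits in which no group was left with a single library. The share of all genes in the same fit, in either direction, is in brackets. For 1b+/- against WT the count was 7 without 1b+/- replicate 1 (3.7%) to 19 with sex as a covariate (5.56%) or males alone (4.31%). It was 17 with no filter (4.28%). For 1b-/- against WT it was 1 in the main fit (1.64%) to 10 after adding sex (2.64%). It was 4 with the compared genotypes alone (1.93%), 3 with no filter (1.67%) and 2 with upper quartile scaling (1.69%). For 1b-/- against 1b+/- it was 0 with sex as a covariate (0.712%) or females alone (0.811%) to 10 with no filter (1.68%). The difference in the fibrillar to basement membrane log2 ratio was 0.03 to 0.63 for 1b+/- against WT, -0.25 to -0.01 for 1b-/- against WT and -0.76 to -0.16 for 1b-/- against 1b+/- when each library was left out.

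No collagen passed the adjusted threshold in any setting, so no direction that turned could belong to a value past it. The directions listed next cover only part of the members and comparisons. Within that part, those that turned for 1b+/- against WT were *Col19a1* with upper quartile scaling (0.016), *Col2a1* with sex as a covariate (0.17) and in males alone (0.18), and *Col8a1* in the same settings (0.13 and 0.14). For 1b-/- against 1b+/- they were *Col1a1* with sex as a covariate (0.30) and in females alone (0.31), *Col1a2* in the same settings (0.0031 and 0.0089), and *Col4a1* with no filter (-0.0030), upper quartile scaling (-0.0028), sex as a covariate (-0.11) and females alone (-0.11). Within the same part, leaving out a library in turn gave log2 fold changes on both sides of 0 for 8 results. For 1b+/- against WT these were *Col19a1* (-0.18 to 0.19), *Col2a1* (-0.18 to 0.056), *Col6a2* (-0.020 to 1.33) and *Col8a1* (-1.32 to 0.059). For 1b-/- against WT they were *Col1a2* (-0.25 to 0.64) and *Col3a1* (-0.26 to 0.54), and for 1b-/- against 1b+/- *Col4a1* (-0.28 to 0.23) and *Col4a2* (-0.27 to 0.020). Results outside that part turned too. Without 1b+/- replicate 1, *Col8a1* for 1b-/- against 1b+/- went from -0.74 to 0.25. In the same fit *Col8a2* for 1b+/- against WT went from 0.087 to -0.65. Adding sex turned *Col8a1* (-1.07 to 0.20) and *Col2a1* (-0.41 to 0.11) for 1b-/- against WT. It also turned *Col8a1* (-0.74 to 0.071) for 1b-/- against 1b+/-. The cause was not tested. Where a group was left with 1 library, that library was assumed to vary like the others. No paired analysis was possible because the replicate numbers are only the order of the samples.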
